A study of Mus musculus with 14 samples.

Results

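The expression of 10 immediate early genes was examined in T cells sorted from the spleens of mice with chronic myeloid leukemia (CML). They were the NR4A genes Nr4a1, Nr4a2 and Nr4a3, the EGR genes Egr1, Egr2 and Egr3, the AP-1 genes Fos, Jun and Junb, and Ier2. The rows were chosen by gene symbol, and all 10 symbols were found among the 24091 genes of the count table. All 10 passed the filter on low counts, as did 12248 genes in all. The bulk RNA-seq held 8 chronic phase (CP CML) mice, Mir142+/+BCR-ABL, and 6 blast crisis (BC CML) mice, Mir142-/-BCR-ABL, with 1 library per mouse. Both groups carried the SCLtTA/BCR-ABL transgene, in which the Scl promoter drives a tetracycline-controlled activator, and BCR-ABL had been switched on for 3 weeks by removing tetracycline. All mice were CD45.2 C57Bl/6j, of both sexes, and 6 to 10 weeks old, and 200000 T cells were sorted per sample. The Mir142 deletion was not restricted to T cells, so the T cells of BC CML mice had also developed without miR-142 in a host lacking it. The library names of the CP CML mice share a prefix and a run of numbers that those of the BC CML mice do not. The labels do not say what these numbers stand for, and whatever they mark cannot be told apart from genotype and disease stage.

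Immediate early genes are transcribed within minutes of a signal from existing transcription factors, without new protein synthesis. In T cells a signal through the antigen receptor raises NR4A, EGR and AP-1 transcripts briefly, and cell handling and stress can raise some of them as well. Fos and Jun proteins pair to form AP-1, EGR proteins are zinc finger factors that also induce restraints on activation, and NR4A proteins are orphan nuclear receptors tied to tolerance and exhaustion. The cAMP response element (CRE) bound by CREB and the CArG box bound by serum response factor are the classic entry points of such signals.

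Promoter windows were available from RefSeq (GRCm38.p6) for 7 of the 10 genes, with 11 windows in all. Egr1, Egr3 and Ier2 were not matched to a window in the set used. The 250 bases before the transcription start are shown for 5 genes in whose windows motifs were found, with capitals for matches on either strand to the CRE core (TGACG), the EGR motif (GCGNGGGCG) or the CArG box. The CRE core was present 4 times each in Nr4a1, Nr4a2 and Nr4a3, in 2 places in Fos and in the Egr2 window shown, and in 1 place in Junb. At least 1 CRE core was held by 17.8% of all 32851 windows of this length. The EGR motif occurred in 1 place in Nr4a1 and in 1 place in Nr4a2, against 4.7% of all windows, and its matches overlapped no CRE core. The CArG box was found in 4 of the 5 Egr2 windows, which overlap in part, so that the 4 matches are 2 sites; 1.47% of all windows held one. The Jun window held none of these letters, nor an exact AP-1 site (TGANTCA with C or G as N), and neither the full CRE palindrome (TGACGTCA) nor the NR4A monomer site (AAAGGTCA) was found in any of the 11 windows. A match is a run of letters and was not tested as a binding site. Sequence outside these 250 bases was not searched, so a site farther away would be missed.
Nr4a1, chr15:101266596-101266845, + strand: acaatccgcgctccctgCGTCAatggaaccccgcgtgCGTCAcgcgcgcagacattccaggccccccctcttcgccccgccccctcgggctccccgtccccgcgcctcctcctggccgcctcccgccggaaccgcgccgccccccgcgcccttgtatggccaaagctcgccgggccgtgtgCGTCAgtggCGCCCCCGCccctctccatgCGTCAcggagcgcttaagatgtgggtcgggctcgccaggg
Nr4a2, chr2:57124004-57124253, - strand: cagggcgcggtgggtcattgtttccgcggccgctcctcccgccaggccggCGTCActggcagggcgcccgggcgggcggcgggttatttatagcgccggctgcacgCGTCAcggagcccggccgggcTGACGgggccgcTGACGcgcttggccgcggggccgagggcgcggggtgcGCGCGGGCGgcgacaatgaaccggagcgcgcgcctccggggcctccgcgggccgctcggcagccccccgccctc
Nr4a3, chr4:48045055-48045304, + strand: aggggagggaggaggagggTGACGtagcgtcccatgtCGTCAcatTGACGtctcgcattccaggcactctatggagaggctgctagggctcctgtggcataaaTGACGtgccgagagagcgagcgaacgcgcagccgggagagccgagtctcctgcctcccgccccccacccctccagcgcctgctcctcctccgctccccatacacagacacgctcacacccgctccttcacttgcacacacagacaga
Fos, chr12:85473640-85473889, + strand: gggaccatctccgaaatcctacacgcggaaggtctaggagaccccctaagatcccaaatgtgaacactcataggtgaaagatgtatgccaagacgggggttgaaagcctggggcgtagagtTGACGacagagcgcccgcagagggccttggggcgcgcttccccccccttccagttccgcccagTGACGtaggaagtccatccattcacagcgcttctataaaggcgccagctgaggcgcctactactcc
Egr2, chr10:67537619-67537868, + strand: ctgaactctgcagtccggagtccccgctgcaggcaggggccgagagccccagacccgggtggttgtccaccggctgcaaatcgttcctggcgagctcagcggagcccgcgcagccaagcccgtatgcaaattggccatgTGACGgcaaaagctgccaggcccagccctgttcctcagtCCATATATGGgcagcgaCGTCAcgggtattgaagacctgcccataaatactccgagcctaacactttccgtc

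The gene deleted in BC CML mice makes a pair of mature miRNAs on chr11 of GRCm38.p6, shown with the seed (bases 2 to 8) in capitals because seed matches in the members are described next.
mmu-miR-142a-3p, chr11:87756903-87756925: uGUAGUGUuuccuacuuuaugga
mmu-miR-142a-5p, chr11:87756867-87756887: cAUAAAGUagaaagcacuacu
In the longest 3′ untranslated region of each gene (GENCODE vM21, mm10), matches of 7 bases were found in 4 members and matches of 8 bases in 0. A miR-142a-3p match was present in Egr2, that is in 1 of 10 members against 12.1% of the 11501 tested genes with such a region. A miR-142a-5p match was present in Nr4a3, Egr3 and Fos, that is in 3 of 10 members against 23.5%. A match of 8 bases to either arm occurred in 8.0% of these genes. The sites are printed with the match in capitals and 10 bases on each side.
Egr2, chr10:67541052-67541058: cgagctgccaACACTACcacccttccc
Nr4a3, chr4:48085076-48085082: gtctaaaagtCTTTATAttatatactc
Egr3, chr14:70081649-70081655: ttttaaagtcACTTTATgcgtttccca
Fos, chr12:85476952-85476958: aaaagataggACTTTATtttccagtag
Of these 4 genes, Egr2 was lower in BC CML and the other 3 did not pass the test, as given with their values below.

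The libraries held 15703702 to 19914531 counted reads each, and the members had between 90 and 6820 reads in a CP CML library and between 181 and 5177 in a BC CML library. Mir142 itself had 302 to 650 reads in the CP CML libraries and 0 in every BC CML library. The sum of 13 T cell markers was 5205 to 6028 CPM (reads scaled to a common library size) in CP CML and 6572 to 7218 CPM in BC CML, with 6 higher, 2 lower and 5 that did not pass the test. Markers of other cells also differed, against a background of 32.6% (higher) and 32.7% (lower) over all tested genes. The summed level of 16 myeloid markers was 94.7 to 591 CPM in CP CML and 700.02 to 1789 CPM in BC CML, with 14 of 16 higher. The 10 B cell markers summed to 65.7 to 201 CPM and 113 to 610 CPM, with 9 of 10 higher, and the 8 NK and innate markers to 327 to 414 CPM and 890.3 to 1254 CPM, with 8 of 8 higher. Some of these NK and innate markers also mark central memory CD8 T cells in the paper, so their sum need not come from other cells. Of 10 naive T cell markers, 8 were lower in BC CML and 1 was higher. In bulk RNA, fewer cells of a type and less RNA per cell cannot be told apart, and the part of these other cells in the values below was not tested except where stated.

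The members did not move as a block. In BC CML, 2 members were higher (Nr4a2 and Jun), 3 were lower (Ier2, Junb and Egr2), and 5 did not pass the test (Nr4a1, Nr4a3, Egr1, Egr3 and Fos). The quasi-likelihood test of edgeR was used, with p-values adjusted over all 12248 genes by the Benjamini-Hochberg method at 0.05. It called 65.2% of all tested genes, 32.6% higher and 32.7% lower, so 5 of 10 was no more than the general share. The median log2 fold change of the members was -0.06 against -0.01 over all tested genes. Levels are CPM scaled by the trimmed mean of M values (TMM), and each difference is BC CML against CP CML on the log2 scale with its SE. The groups of mice did not overlap for 1 member, Ier2, against 36.9% of all tested genes.

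**Figure D1:**
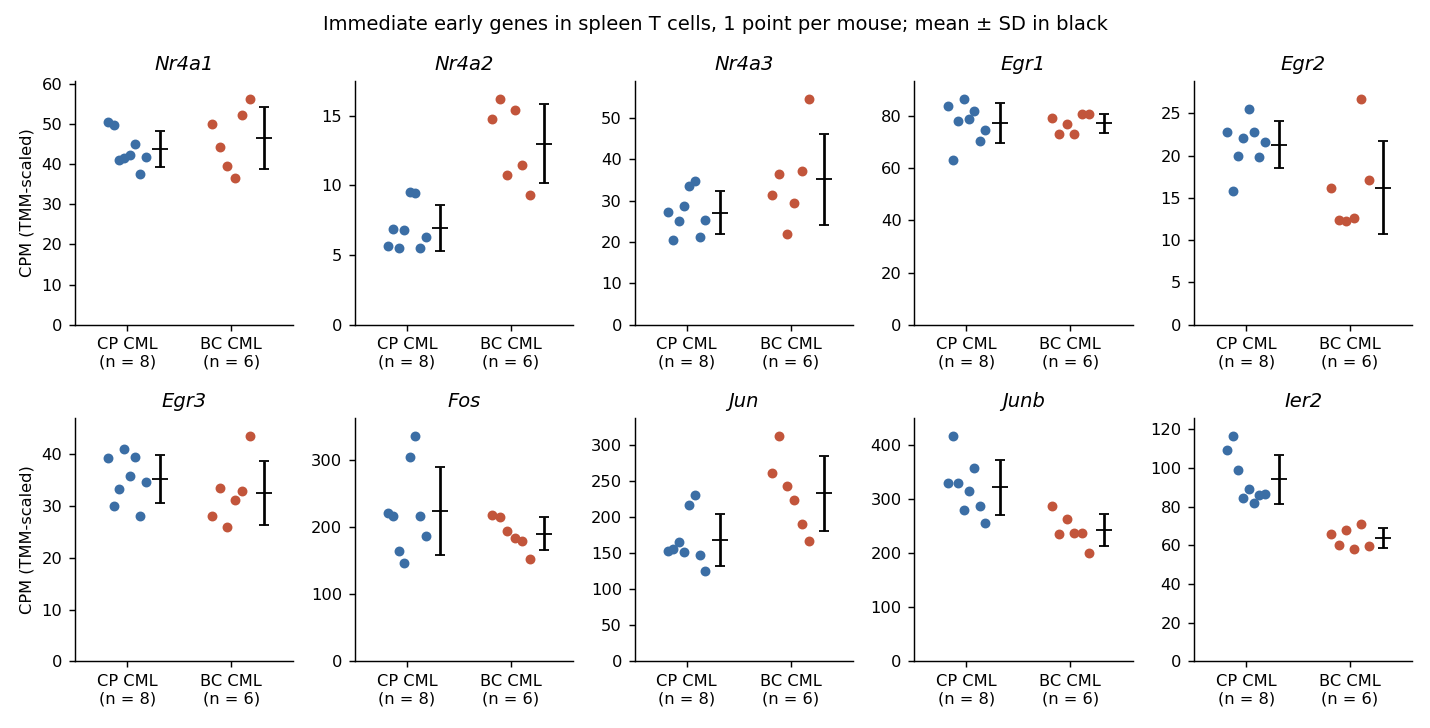
TMM-scaled CPM of each gene (vertical axes, from 0) in each of 8 CP CML (blue) and 6 BC CML (red) mice, with the group mean ± SD in black. Ier2 shows a gap between the groups (58.2 to 71.2 CPM in BC CML, 82.1 to 116.7 CPM in CP CML), Nr4a2 nearly so, and Egr1 almost equal means.

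**Figure D2:**
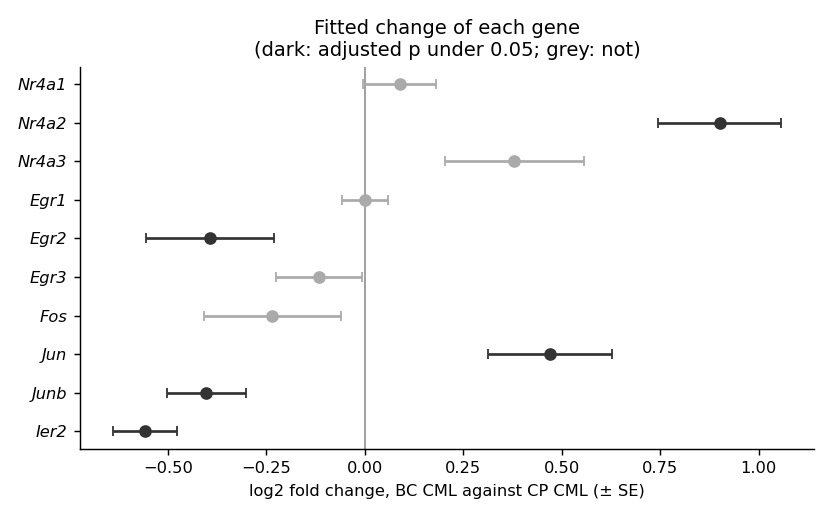
Fitted log2 fold change of BC CML against CP CML for each gene, with bars of 1 SE and dark points for adjusted p under 0.05. The values run from -0.56 for Ier2 to 0.90 for Nr4a2, and each of the NR4A, EGR and AP-1 families holds members on and off the threshold.

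Among the NR4A receptors, Nr4a2 (Nurr1; chr2:57107226-57124003, mm10) rose. Its level was 5.51 to 9.55 CPM with a median of 6.55 in CP CML and 9.31 to 16.2 CPM with a median of 13.1 in BC CML. The lowest BC CML mouse lay just below the 2 highest CP CML mice, and the other 5 BC CML mice lay above all CP CML mice. The difference was 0.90 ± 0.16 (SE; 1.87-fold; edgeR adjusted p = 7.7e-05). With a heat shock score (the mean log2 CPM of a list of heat shock and handling genes) as covariate it was 0.55 (adjusted p = 0.043). Nr4a1 (Nur77; chr15:101266846-101274794), the member most often used to report antigen receptor signalling, was 37.6 to 50.6 CPM with a median of 42.0 in CP CML and 36.5 to 56.3 CPM with a median of 47.2 in BC CML. Of the BC CML mice 2 lay above the CP CML range and 1 below it, and the difference was 0.09 ± 0.09 (edgeR adjusted p = 0.412). Nr4a3 (Nor1; chr4:48045305-48086446) was 20.6 to 34.7 CPM with a median of 26.3 in CP CML and 21.9 to 54.6 CPM with a median of 34.0 in BC CML. Of the BC CML mice, 3 lay above all CP CML mice and BC CML replicate 6 was the highest of all, and the difference of 0.38 ± 0.18 did not pass (edgeR adjusted p = 0.073). By DESeq2 it was 0.39 and passed (adjusted p = 0.032), and with the heat shock score as covariate it turned to -0.083 (edgeR adjusted p = 0.809). Without BC CML replicate 6 it was 0.21 (adjusted p = 0.221), whereas without BC CML replicate 3 or without CP CML replicate 6 it was 0.48 and 0.44 and passed (adjusted p = 0.015 and 0.045).

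Per kilobase of gene length, Nr4a1 made up most of the NR4A family in both groups. Its share was 72.9% ± 4.1 (SD, n = 8) in CP CML, while BC CML had 66.0% ± 3.6 (SD, n = 6). Nr4a2 held 8.02% ± 1.5 and 13.2% ± 3.7, and Nr4a3 held 19.1% ± 2.9 and 20.9% ± 3.6. The ratio of Nr4a1 to Nr4a2 within a mouse was lower in BC CML by 0.83 on the log2 scale (exact permutation test over 3003 splits, p = 0.0037, adjusted p = 0.0097 over 45 ratios), and that of Nr4a1 to Nr4a3 differed by -0.27 (exact permutation adjusted p = 0.165).

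Of the EGR factors, Egr1 (chr18:34861207-34864956) was closest to equal. It was 63.3 to 86.5 CPM with a median of 78.5 in CP CML and 72.9 to 80.9 CPM with a median of 78.0 in BC CML. All 6 BC CML mice lay inside the CP CML range, and the difference was 0.00 ± 0.06 (edgeR adjusted p = 0.994). Egr2 (Krox20; chr10:67537869-67542188), which with Egr3 induces negative regulators of receptor signalling, was 15.9 to 25.5 CPM with a median of 21.8 in CP CML and 12.3 to 26.7 CPM with a median of 14.4 in BC CML. BC CML replicate 5 had the highest level of all 14 mice at 26.7 CPM, while the other 5 BC CML mice were at 17.2 CPM or below and 3 of them were below every CP CML mouse. The library name of replicate 5 ends in RP, as no other name does, and the labels do not explain this ending. The difference was -0.39 ± 0.16 (edgeR adjusted p = 0.043). This call was weak: it was lost in 12 of the 14 fits that left out 1 mouse (adjusted p up to 0.098), while without BC CML replicate 5 the difference was -0.60 (adjusted p = 0.00016). It was -0.81 with the heat shock score as covariate (adjusted p = 0.011) and -0.48 with the myeloid score (adjusted p = 0.180). Egr3 (chr14:70077445-70082613) was 28.0 to 40.9 CPM with a median of 35.2 in CP CML and 25.9 to 43.5 CPM with a median of 31.96 in BC CML. The groups overlapped widely, with BC CML replicate 6 the highest mouse, and the difference was -0.12 ± 0.11 (edgeR adjusted p = 0.365). Without that mouse it was -0.22 and passed (adjusted p = 0.047).

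Of the AP-1 genes, Jun and Junb moved in opposite directions and Fos did not pass the test. Jun (chr4:95049036-95052222), a partner of Fos, rose: it was 125 to 231 CPM with a median of 155 in CP CML and 166 to 313 CPM with a median of 234 in BC CML. Of the BC CML mice 3 lay above all CP CML mice, and the highest CP CML mice were replicates 5 and 6 at 217 and 231 CPM. The difference was 0.47 ± 0.16 (1.38-fold; edgeR adjusted p = 0.017). With the heat shock score as covariate it was 0.11 and did not pass (adjusted p = 0.695), as described with the covariation between mice. The score, in log2 CPM, was 6.91 to 7.50 in BC CML, above 6 of 8 CP CML mice, and its list holds genes that themselves differed between the groups, such as Bag3, so this covariate is also tied to the genotype. Junb (chr8:84976909-84978748), a Jun relative that can hold Jun activity down, fell: it was 255 to 416 CPM with a median of 322 in CP CML and 199.6 to 287 CPM with a median of 237 in BC CML. In 4 of 6 BC CML mice it was below every CP CML mouse, and the difference was -0.40 ± 0.10 (edgeR adjusted p = 0.0026). Fos (chr12:85473901-85477270) was 147 to 335 CPM with a median of 216 in CP CML and 153 to 217 CPM with a median of 189 in BC CML. All BC CML mice lay inside the CP CML range, which was stretched by replicates 5 and 6 at 305 and 335 CPM, and the difference was -0.24 ± 0.17 (edgeR adjusted p = 0.251). With a myeloid score as covariate, Junb and Jun kept their direction but lost their calls (-0.38 and 0.60, adjusted p = 0.089 and 0.10).

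Ier2 (chr8:84661331-84662852), a small nuclear protein gene induced early by growth and receptor signals, fell with the lowest adjusted p of the members. It was 82.1 to 116.7 CPM with a median of 87.8 in CP CML and 58.2 to 71.2 CPM with a median of 63.1 in BC CML, so every BC CML mouse lay below every CP CML mouse. The difference was -0.56 ± 0.08 (0.679-fold; edgeR adjusted p = 1.2e-05). Over the 9 other settings of the fit it was -0.60 to -0.54, and the highest adjusted p was 0.0042. Nr4a2 also passed in all of these, with differences of 0.55 to 0.91 and a highest adjusted p of 0.043.

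The order of levels per kilobase was similar in both groups at the top and the bottom. In CP CML, Junb was highest at 175 ± 27 CPM per kb (SD, n = 8), followed by Fos at 107 ± 31, Ier2 at 61.9 ± 8.4, Jun at 52.8 ± 11.4, Egr1 at 25.2 ± 2.5, Nr4a1 at 17.7 ± 1.8, Egr3 at 8.78 ± 1.16, Egr2 at 7.20 ± 0.96, Nr4a3 at 4.65 ± 0.89 and Nr4a2 at 1.96 ± 0.47. Neighbours in this order overlapped in their ranges except Jun and Egr1, Egr1 and Nr4a1, Nr4a1 and Egr3, and Nr4a3 and Nr4a2. In BC CML, Junb at 132 ± 16 (SD, n = 6) and Fos at 90.9 ± 11.5 again led. Jun at 73.2 ± 16.3 stood above Ier2 at 42.0 ± 3.4 in 6 of 6 mice with no overlap, the reverse of CP CML, where Ier2 exceeded Jun in 6 of 8 mice. Nr4a3 at 6.05 ± 1.89 and Egr2 at 5.48 ± 1.87 could not be ordered in BC CML, and Nr4a2 had the lowest mean at 3.66 ± 0.80, with a range that overlapped that of Egr2.

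Ratios of 2 members within a mouse do not depend on how libraries are scaled, and all 45 were compared between the groups by a two-sided exact permutation test over the 3003 splits of 14 mice, a comparison added after the values had been seen. Of the 45 ratios, 25 passed at an adjusted p under 0.05 and 20 did not, and the share over all gene pairs was not computed. The groups did not overlap for 7 ratios (15.6%), which is below the 36.7% found over all pairs of tested genes. That 36.7% was taken from log2 CPM with a prior count of 2. The 7 were Nr4a1 over Ier2, Nr4a2 over Fos, Nr4a2 over Junb, Nr4a2 over Ier2, Egr1 over Ier2, Fos over Jun and Jun over Junb. Fos over Jun was 0.972 to 1.498 in CP CML, with 6 of 8 mice at 1.38 or above, and 0.685 to 0.938 in BC CML. The change was -0.66 on the log2 scale (p = 0.00067, adjusted p = 0.0033, exact permutation). CP CML replicates 5 and 6, the highest for Fos and Jun, had ratios of 1.40 and 1.45, while replicates 3 and 4 had 0.986 and 0.972, close to the highest BC CML mouse. Jun over Junb was 0.375 to 0.688 in CP CML and 0.805 to 1.33 in BC CML, a change of 0.86 (exact permutation p = 0.00033, the smallest these splits can give; adjusted p = 0.0030). Nr4a2 over Fos was 0.0255 to 0.0464 in CP CML and 0.0555 to 0.0839 in BC CML, a change of 1.10 at the same p.

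**Figure D3:**
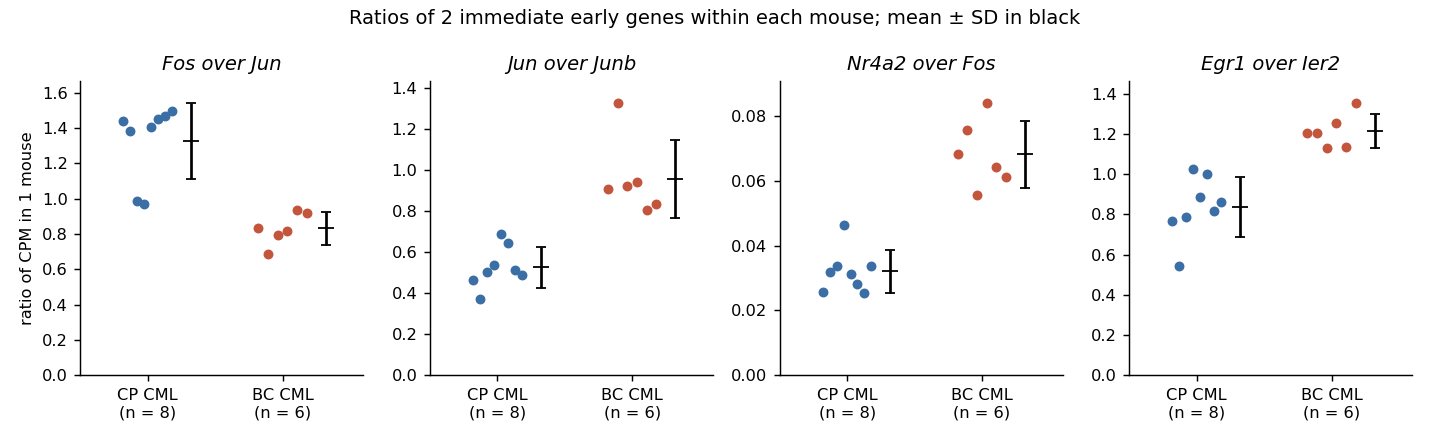
Ratios of CPM of 2 immediate early genes within each mouse (vertical axes, from 0), for 8 CP CML (blue) and 6 BC CML (red) mice, with the group mean ± SD in black. In each of these 4 ratios the groups do not overlap: Fos over Jun is lower in BC CML, and Jun over Junb, Nr4a2 over Fos and Egr1 over Ier2 are higher.

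Most members varied between mice of the same group more than most genes, with Egr1 and Ier2 in BC CML as the exceptions. The median SD of log2 CPM over the members was 0.21 in CP CML and 0.25 in BC CML, against 0.10 and 0.11 over the 8839 tested genes at or above the average level of the lowest member. In CP CML Fos varied most with an SD of 0.41, larger than that of 89.8% of all tested genes. In BC CML Nr4a3 (SD 0.43) and Egr2 (SD 0.43) were the most variable, above 89.9% and 89.8% of genes, and Egr1 was the least variable with an SD of 0.07, above 14.2%, followed by Ier2 with 0.12, above 42.3%. In CP CML replicate 6, 9 of 10 members were above the group mean, against 1 of 10 in each of replicates 7 and 8. In BC CML replicate 6, 4 members had the highest and 4 the lowest level of the 6 mice.

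Covariation between mice was measured as the correlation of log2 CPM over the mice of each group separately, for the 45 pairs of members. In CP CML the median Pearson's r was 0.30 against -0.00 over all pairs of tested genes, with 31 positive and 14 negative pairs. Without CP CML replicates 5 and 6, the highest of the group for Fos and Jun, the median was 0.051, with 23 positive and 22 negative pairs. In BC CML the median was -0.12 against 0.00, with 21 positive and 24 negative pairs. With the 2 mice farthest from the median of the first gene of each pair left out, the medians were 0.20 and 0.019. After adjustment over the 45 pairs of a group, 0 pairs passed 0.05 in either group by the exact permutation test of Pearson's r, and 0 by Spearman's rho. With 6 BC CML mice the smallest exact permutation p is 0.0014, so a single BC CML pair could not pass after adjustment, whatever its r. At an unadjusted exact permutation p under 0.05, there were 11 pairs in CP CML (lowest adjusted p = 0.065) and 3 in BC CML (lowest adjusted p = 0.208). With an r of at least 0.7, a limit set after the values were seen, there were 11 pairs in CP CML (24.4% against 5.51% of all gene pairs), 9 in BC CML (against 7.6%), and 5 in both (11.1% against 0.836%). With an r of -0.7 or below there were 0 pairs in CP CML (against 5.4% of all gene pairs) and 4 in BC CML (8.89% against 7.35%), which were Nr4a2 with Egr1, Nr4a3 with Junb, Egr3 with Fos and Egr3 with Junb. Pairs of members share genes and mice and are not independent of each other.

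**Figure D4:**
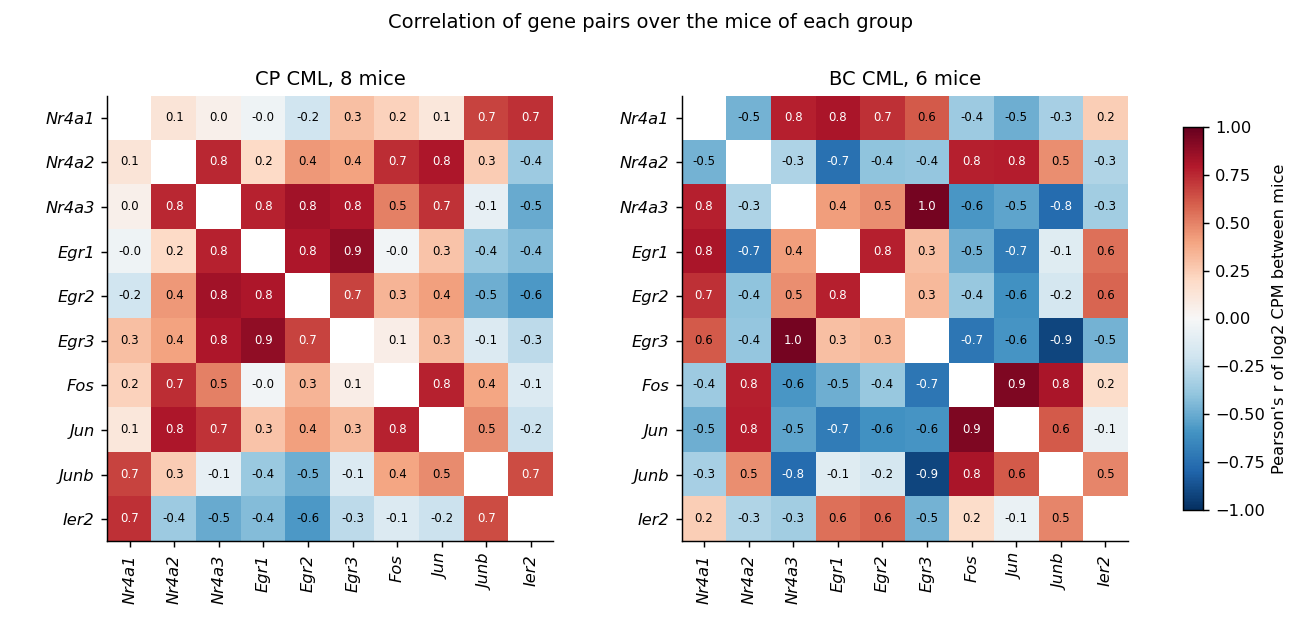
Pearson's r of log2 CPM between mice for each pair of the 10 genes, in 8 CP CML mice (left) and 6 BC CML mice (right), from blue (-1) to red (1). Fos with Jun, Nr4a2 with Fos, Nr4a2 with Jun, Nr4a3 with Egr3 and Egr1 with Egr2 are red in both panels, while in BC CML most pairs between Nr4a2, Fos, Jun or Junb and Nr4a3 or the EGR genes are blue.

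Of the 5 pairs, 3 joined Fos, Jun and Nr4a2 with each other, and the other two, Nr4a3 with Egr3 and Egr1 with Egr2, shared no gene. Fos and Jun had an r of 0.77 in CP CML (rho 0.55, exact permutation p = 0.027 and 0.171, adjusted p = 0.169 for r) and 0.94 in BC CML (rho 0.94, exact permutation p = 0.0097 and 0.017, adjusted p = 0.208 for r). Nr4a2 and Jun had 0.81 in CP CML (rho 0.50, exact permutation p = 0.022 and 0.216) and 0.79 in BC CML (rho 0.71, exact permutation p = 0.068 and 0.136). Nr4a2 and Fos had 0.74 in CP CML (rho 0.50, exact permutation p = 0.039 and 0.216) and 0.77 in BC CML (rho 0.60, exact permutation p = 0.068 and 0.242). In CP CML these relations rested on replicates 5 and 6: without both, r was -0.11 for Fos and Jun, -0.21 for Nr4a2 and Jun and -0.27 for Nr4a2 and Fos. In BC CML, without the 2 mice farthest from the median of the gene named first, which leaves 4 mice, r was 0.98 for Fos and Jun, 0.34 for Nr4a2 and Jun and 0.33 for Nr4a2 and Fos.

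The pairs Nr4a3 with Egr3 and Egr1 with Egr2 did not rest on those 2 CP CML mice. Nr4a3 and Egr3 had an r of 0.81 in CP CML (rho 0.86, exact permutation p = 0.017 and 0.011) and 0.96 in BC CML (rho 0.89, exact permutation p = 0.0056 and 0.033). Without CP CML replicates 5 and 6 it was 0.96, and without BC CML replicates 3 and 6, the mice farthest from the median of Nr4a3, it was 0.70. Egr1 and Egr2 had 0.81 in CP CML (rho 0.76, exact permutation p = 0.018 and 0.037) and 0.78 in BC CML (rho 0.77, exact permutation p = 0.054 and 0.103). This pair was 0.89 without CP CML replicates 5 and 6 but 0.18 without CP CML replicates 2 and 7, the mice farthest from the median of Egr1, where both genes were low. Egr1 and Egr3 had 0.89 in CP CML (rho 0.93, exact permutation p = 0.0026 and 0.0022, adjusted p = 0.065 for r), and 0.90 without the same 2 mice. In BC CML this pair had 0.30 (exact permutation p = 0.585), and 0.84 without BC CML replicates 2 and 4. Egr3 and Junb had -0.14 in CP CML (exact permutation p = 0.740) and -0.91 in BC CML (exact permutation p = 0.014, adjusted p = 0.208). Whether a correlation differed between the groups was not tested.

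**Figure D5:**
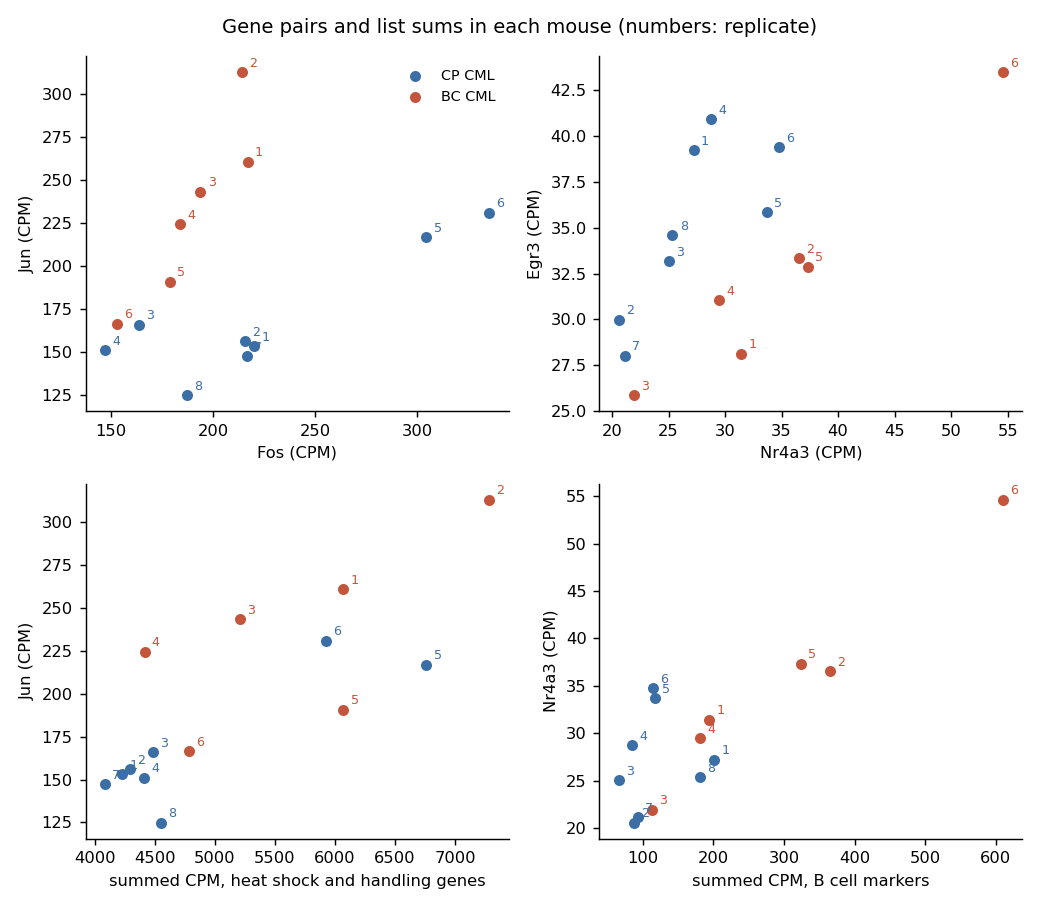
Values in each mouse, numbered by replicate, for 8 CP CML (blue) and 6 BC CML (red) mice: Jun against Fos, Egr3 against Nr4a3, Jun against the sum of the heat shock and handling genes, and Nr4a3 against the sum of B cell markers, all in CPM. CP CML replicates 5 and 6 are set apart from the other CP CML mice in Fos, Jun and the heat shock sum. Their Jun and heat shock values lie within the BC CML range. BC CML replicate 6 is highest in Nr4a3, Egr3 and the B cell sum.

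Values that moved with these patterns were examined in the same way, as 40 correlations per group between the 10 members and 4 measures: the mean log2 CPM of the heat shock and handling genes, of the myeloid markers and of the B cell markers, and the total reads. By the exact permutation test 0 passed after adjustment over the 40, and 3 in CP CML and 5 in BC CML had an unadjusted p under 0.05. In BC CML the smallest exact permutation p is 0.0014, so a single correlation could not pass after this adjustment. In CP CML the heat shock score had an r of 0.86 with Nr4a2, 0.86 with Jun and 0.80 with Fos (exact permutation p = 0.016, 0.017 and 0.022, adjusted p = 0.294 for each, rho 0.50, 0.81 and 0.55). Without the 2 mice farthest from the median score, r was 0.03, 0.17 and 0.10. CP CML replicates 5 and 6 had heat shock sums of 6761 and 5925 CPM, against 4084 to 4549 CPM in the other 6 CP CML mice, and the BC CML mice had 4417 to 7286 CPM. In BC CML the same score had an r of 0.13 with Nr4a2, 0.12 with Jun and 0.17 with Fos. With the heat shock score as covariate, in the fit in which Jun lost its call, the difference of Fos became -0.65 and passed (edgeR adjusted p = 0.027), and Nr4a2 was 0.55, down from 0.90, and still passed (adjusted p = 0.043). Without CP CML replicates 5 and 6, Jun was 0.64, Nr4a2 1.09 and Fos -0.01 (adjusted p = 0.0011, 4.3e-06 and 0.930). These mice were picked after the values were seen and were the highest of CP CML for all 3 genes. Leaving them out raises the differences by itself, so these p-values are no separate result.

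In BC CML, Nr4a3 and Egr3 had a high r with marker scores of other cells over the 6 mice, though none passed after adjustment. The B cell score had an r of 0.98 with Nr4a3 and 0.95 with Egr3 (exact permutation p = 0.0042 for each, adjusted p = 0.083, rho 0.94 for each), and the myeloid score had 0.82 and 0.87 (exact permutation p = 0.038 and 0.011, adjusted p = 0.300 and 0.111). Without the 2 mice farthest from the median score, the B cell correlations were 0.96 and 0.83. Junb had an r of -0.88 with the myeloid score (exact permutation p = 0.0069, adjusted p = 0.093, rho -0.94). BC CML replicate 6 had the highest sums of both lists, 610 CPM of B cell markers and 1789 CPM of myeloid markers. In CP CML the B cell score had an r of 0.24 with Nr4a3 and 0.37 with Egr3, and the myeloid score -0.20 and -0.34. With the myeloid score as covariate, Nr4a2 was 0.90 and Ier2 -0.60 (edgeR adjusted p = 0.015 and 0.0020), and 2 of 10 members passed, where 41.8% of all tested genes did. The myeloid sums of the groups do not overlap, so this covariate is tied to the genotype.

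The genes most like the members were sought among 9062 tested genes with an average log2 CPM of at least 3, as Pearson's r over the 14 mice with the mean log2 CPM of the 10 members, each gene's group mean having been subtracted. The 8 highest were Arf3 (0.92), Tsc22d4 (0.92), Maz (0.92), Pbx2 (0.90), Dnmt3a (0.90), Nfkb1 (0.89), Nfkb2 (0.89) and Npepps (0.88). These genes were picked by this r out of all candidates. Measured against the mean of the 9 other members, each member had an r between -0.17 for Ier2 and 0.50 for Fos.

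Other genes of the same response were read from lists. Of 35 other immediate early genes, 32 were tested, 15 were higher, 7 were lower and 10 did not pass, with a median difference of 0.14. The 22 called are close to the 65.2% called over all tested genes. The 4 with the lowest p were Dusp6, a phosphatase that turns ERK off (37.9 ± 6.1 and 101.7 ± 14.5 CPM (SD); 1.42, edgeR adjusted p = 1.3e-08), Klf2, a quiescence factor (-0.61, adjusted p = 2.1e-08), Atf3, a stress-induced factor (2.85, adjusted p = 1.1e-06, at 0.285 and 2.11 CPM), and Srf, the factor that binds the CArG box (-0.31, adjusted p = 3.0e-06). Klf2 is also in the naive T cell list. With the myeloid or the heat shock score as covariate 11 and 10 genes of this list passed, while the calls over all tested genes also fell, to 5125 (41.8%) and 5885 (48.0%).

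Of 24 upstream factors and kinases 9 were higher, 6 were lower and 9 did not pass, with a median difference of 0.03, and the 15 called are again close to the 65.2% of all tested genes. The 4 with the lowest p were the Srf partner Mkl1 (-0.57, edgeR adjusted p = 5.9e-10), the ERK-activated kinase Rps6ka3 (0.46, adjusted p = 2.6e-09), and the MEF2 factors Mef2a (0.53, adjusted p = 2.7e-08) and Mef2c (3.56, adjusted p = 4.5e-08). Mef2c was 1.99 to 9.25 CPM in CP CML and 48.2 to 89.2 CPM in BC CML, and it is also abundant in B and myeloid cells. Srf is in this list as well.

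Of 17 tested partners and inhibitors, 6 were higher, 5 were lower and 6 did not pass, with a median difference of 0.00, and the 11 called match the 65.2% of all tested genes. Nab1, a corepressor of EGR proteins, was 134 to 155 CPM in CP CML and 245 to 264 CPM in BC CML, with no overlap (0.83 ± 0.03, edgeR adjusted p = 1.5e-12). The AP-1 partners Batf (-0.61, adjusted p = 2.1e-07) and Jdp2 (1.01, adjusted p = 4.6e-07) and the small Maf protein gene Mafg (0.63, adjusted p = 2.9e-07) followed.

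Of 22 genes linked to NR4A and EGR in tolerance or activation, 10 were higher, 7 were lower and 5 did not pass, with a median difference of 0.17, so that 17 of 22 were called where 65.2% of all tested genes were. The 4 with the lowest p were Tnfrsf9 (4-1BB; 0.97, edgeR adjusted p = 5.2e-08), Dgka, a kinase that restrains receptor signalling (-0.51, adjusted p = 9.0e-08), Ctla4, an inhibitory receptor (-1.34, adjusted p = 2.9e-07) and Ndrg1 (0.88, adjusted p = 4.0e-06). Of 12 tested heat shock and handling genes 4 were higher, 1 was lower and 7 did not pass, so that 5 of 12 were called where 65.2% of all tested genes were. They were led by the chaperone regulator Bag3, at 5.78 to 7.64 CPM in CP CML and 33.8 to 38.2 CPM in BC CML (2.45, edgeR adjusted p = 2.6e-15), with Dnajb4 (0.54, adjusted p = 1.8e-05), Hspe1 (-0.39, adjusted p = 0.00013) and Hspa1b (2.84, adjusted p = 0.00039) after it, and reads of Hspa1b may be shared with its near-identical copy Hspa1a. Without CP CML replicates 5 and 6, 10 of the 12 were called, where 65.1% of all tested genes were. Those mice were the highest of CP CML for the heat shock sum.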

How the data were processed

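RNA-seq counts of spleen T cells were used from 8 CP CML and 6 BC CML mice, each with its own library. The 10 members and the gene lists were chosen with earlier results of these data known. The authors trimmed the reads of 101 nt with Trimmomatic and FASTP, aligned them to mm10 with STAR 2.6.0, counted them per gene with HTSeq 0.11.1 and deposited raw counts without normalization. The annotation and strand setting used for counting are not given in the sources used here, so reads of overlapping or antisense genes may be assigned to either gene. The depth was 15703702 to 19914531 reads per library, and every member had at least 90 reads in each.

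Counts were analysed with edgeR 4.0.16 under R 4.3.3. The function filterByExpr, given the groups, removed low genes, TMM factors scaled the libraries, and the comparison was a robust quasi-likelihood fit (glmQLFit, glmQLFTest) with Benjamini-Hochberg adjustment at 0.05 and no covariate; the SE was computed from the fold change and F. Log2 CPM for correlations used a prior count of 2, and pairs were tested by exact two-sided permutation of all pairings. Scripts were tested on simulated data. As alternatives, DESeq2 1.42.0, the likelihood ratio test of edgeR, scaling by RLE or by library size alone, other filters (1 CPM in 6 samples, or none), the replicate number as block, marker scores as covariates and leaving out mice were tried. Leaving out replicates 5 and 6 of a group together, the ratios within a mouse and the limit of 0.7 for r were chosen after seeing the data.

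Genes were named by a rule: Mir142, the 10 members, the 4 genes with the lowest p of each other list, and the 8 genes most like the members' mean; Mir142 and marker lists are given as sums or counts. Replicate libraries were compared in pairs. Chi-square over its degrees of freedom was 2.99 to 20.8 in CP CML and 7.89 to 21.6 in BC CML, so no library was a repeat of another. Each library is a separate mouse by its label, and p-values of the group comparison weigh the difference against the spread between these mice. They do not cover variation between separate cohorts of mice.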

Additional observations from a re-analysis of the deposited data

Results flagged for a closer look

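In 46 sets of values (each of the 10 members, 12 list sums and the total reads, in each group), 3 had a highest or lowest mouse farther from the others than Dixon's limit allows. Chance alone flags about 5% of such sets, or 2.3 of 46. Egr2 was 26.7 CPM in BC CML replicate 5, and the mouse after it in this group had 17.2 CPM. The same mouse had the highest summed level of the proliferation markers, 1004 CPM against 742 CPM in the next mouse, and the part of that in its Egr2 level was not tested. BC CML replicate 2 had the fewest reads of its group, 16145537 against 18319039 in the next library, and the highest Jun and Nr4a2 levels of that group.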

How the results depend on the processing

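Nr4a2 and Ier2 kept their direction and passed the test under every alternative run. For other members the call or sign changed as follows (log2 differences, edgeR or DESeq2 adjusted p). By DESeq2, Nr4a3 passed (0.39, 0.032). Without a filter Egr2 did not pass (-0.39, 0.062). With the replicate number as block Jun did not pass (0.38, 0.144), and Egr2 was -0.45 (0.0054). The replicate numbers do not pair mice: the correlation of same-numbered mice was -0.27 to 0.36 (mean -0.02), and 2 of 6 were over 0.1. With the myeloid score as covariate, 2 of 10 members and 5125 genes in all (41.8%) were called. They included 11 of 32 other immediate early genes, 7 of 17 partners and inhibitors and 8 of 22 tolerance and activation genes. Egr2 (-0.48), Jun (0.60) and Junb (-0.38) did not pass. With the heat shock score as covariate, 5885 genes in all (48.0%) were called. They included 10 of 32 other immediate early genes, 10 of 22 tolerance and activation genes and 9 of 12 heat shock genes. The score is the mean of those same heat shock genes, so their count of 9 says nothing about the groups. Fos passed (-0.65) and Jun did not (0.11). With the heat shock score Nr4a3 turned from 0.38 to -0.083. Signs near 0 also turned: Nr4a1 was -0.063 and -0.095 with the myeloid and heat shock scores, and Egr1 was -0.0094 by library size alone, -0.00098 without a filter, -0.023 with the block and -0.025 with the heat shock score. The causes were not tested.

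Leaving out 1 mouse in turn, Egr2 was -0.60 to -0.32, Nr4a3 0.21 to 0.48, Egr3 -0.22 to -0.058, Egr1 -0.037 to 0.025, Fos -0.31 to -0.13 (the latter without CP CML replicate 6) and Nr4a1 0.026 (without BC CML replicate 6) to 0.15 (without BC CML replicate 4; 0.050 without BC CML replicate 5), and 4 or 5 members and 7721 to 7966 genes in all were called. Without CP CML replicates 5 and 6 together, Nr4a3 passed (0.51), Egr2 did not (-0.33), and 10 of 12 heat shock genes were called, against 65.1% of all tested genes. These mice had the highest Nr4a3 levels and heat shock sums of CP CML, so leaving them out raises such differences by itself. Without BC CML replicates 5 and 6, Egr3 passed (-0.25), and Nr4a1 (-0.040) and Egr1 (-0.035) turned. Pairs with an r of at least 0.7 in CP CML numbered 7 by Spearman and 7 to 13 with 1 mouse left out. In BC CML leaving out 1 mouse leaves 5, and this was not run.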
